A study of Mus musculus with 6 samples.

Results

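The AP-1 transcription factor genes Fos, Fosb, Fosl1, Fosl2, Jun, Junb, Jund, Batf, Batf3 and Maff were followed in mouse primary lung fibroblasts given PBS or rmCIRBP, a recombinant form of the mouse cold-inducible RNA-binding protein. The members were taken by gene symbol from a table of raw counts, and all 10 were among its 55487 genes. The cells came from wild-type C57BL/6 mice, were grown in 10% serum and starved in 0.1% serum over 24 h before they received rmCIRBP at 1 µg/mL, or PBS, for another 24 h. Each group had 3 libraries of polyA-selected RNA, sequenced together. The labels do not tell whether replicates were separate mice or separate dishes, so that p-values measure the spread between these libraries, which may be technical.

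AP-1 is not a single protein but a set of dimers held together by a leucine zipper, with a basic region that grips DNA. FOS proteins cannot pair with themselves and need a JUN partner, whereas JUN proteins can also pair with each other. Fos, Fosb, Jun and Junb are immediate-early genes, whose short-lived mRNAs rise and decay quickly after serum, growth factors, cytokines or mechanical disturbance, while Fosl1 and Fosl2 come later and last longer. In fibroblasts AP-1 is known for driving matrix metalloproteinases and inflammatory mediators.

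The members behaved in 3 ways. Fosl1, Maff and Fosl2 rose after rmCIRBP in every library, by 4.55, 2.53 and 1.97 times. Fos, Fosb, Jun, Junb and Jund were expressed in all libraries, did not pass the test and varied widely among replicates, and rmCIRBP 2 held less of them than the other rmCIRBP libraries did. Batf and Batf3 were close to absent. Of the 10 members, 8 passed the filter on low counts and could be tested, and 3 of these 8 were called higher (edgeR's quasi-likelihood test, Benjamini-Hochberg adjusted p under 0.05 over all 15801 genes tested), where 6.74% of all genes tested were called higher. None was called lower, against 4.77% of all genes. The count of members lower was 0 also at an unadjusted p under 0.05, by DESeq2 and by limma voom. A count of 0 among 8 lies near the share over all genes and says little about the members. Of the 8 tested members, these 3 were the ones in which each rmCIRBP library lay above each PBS library, which held for 16.0% of all genes tested. It held also for Batf, which was not tested. The members, like the gene lists below, were chosen with earlier results of these data known, so these counts are descriptions only. RNA of whole cultures cannot tell fewer cells making a transcript from less transcript per cell.

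**Figure D1:**
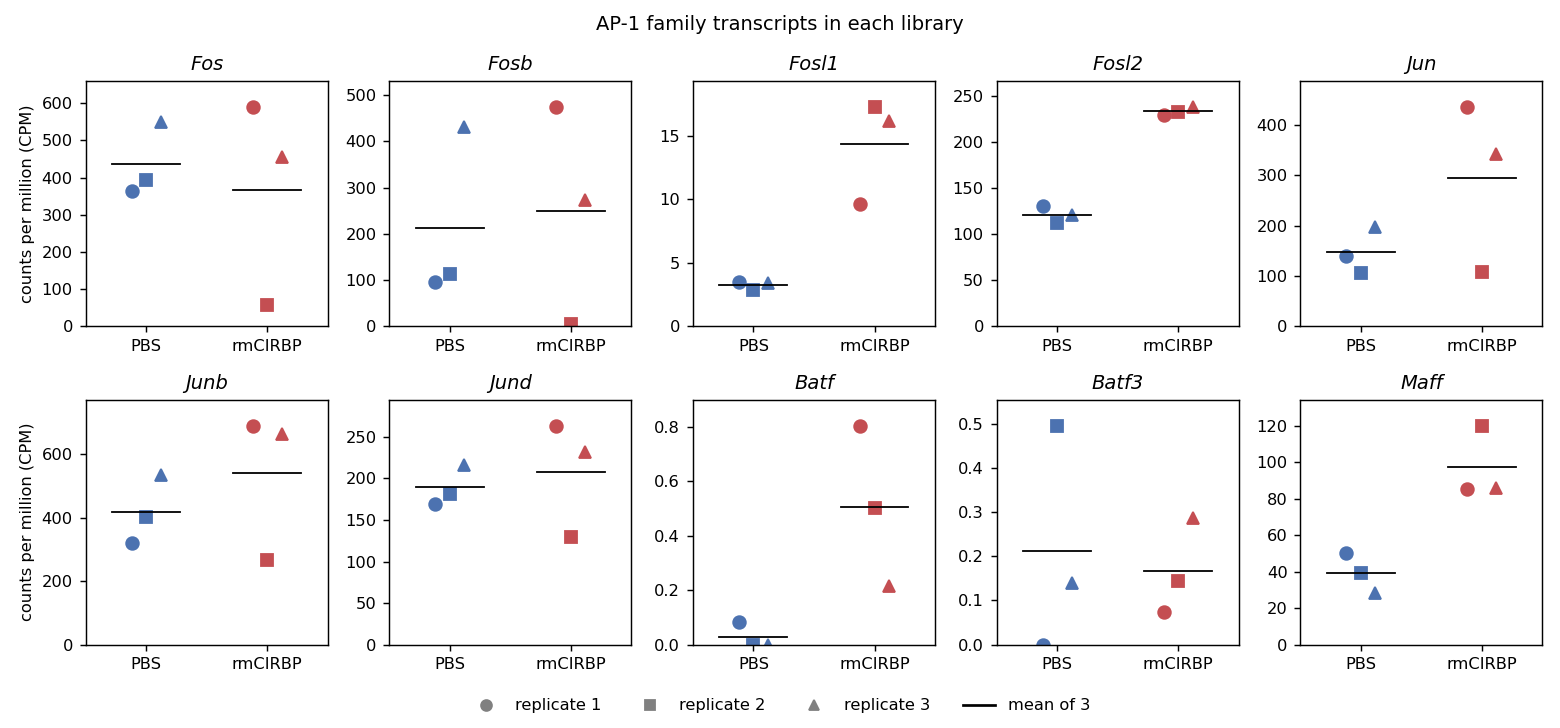
CPM (counts scaled to the library total) of the 10 AP-1 genes in each library (vertical axis, from 0 in each panel), with PBS in blue, rmCIRBP in red, a marker shape for each replicate number and a black line for the mean of 3. The groups stand apart for Fosl1, Fosl2 and Maff, whereas the square of rmCIRBP 2 lies far below the other rmCIRBP libraries for Fos (56.3 CPM) and Fosb (4.60 CPM).

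Fosl1 (ENSMUSG00000024912, chromosome 19, 5447547 to 5455946, plus strand, GRCm38) encodes FRA-1, a FOS protein without the strong activation domain of FOS. In CPM, which are counts scaled to the library total, it was at 3.45, 2.81 and 3.37 in PBS 1, 2 and 3, and at 9.58, 17.2 and 16.1 in rmCIRBP 1, 2 and 3. The lowest rmCIRBP library was thus well above the highest PBS library. The means were 3.21 ± 0.349 and 14.3 ± 4.14 CPM (SD, n = 3 each). On the log2 scale the rise was 2.19 with an SE of 0.27 (edgeR adjusted p = 0.00252). Fosl1 shares 2767 bases with Ccdc85b on the other strand. Ccdc85b was at 24.4 to 28.5 CPM in PBS and 32.5 to 41.8 CPM in rmCIRBP (log2 fold change 0.50 ± 0.13; edgeR adjusted p = 0.0514), and reads from the shared part cannot be assigned with certainty, since no strand setting is given in the sources used here.

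Fosl2 (ENSMUSG00000029135, chromosome 5, 32135801 to 32157842, plus strand) encodes FRA-2, the other FOS-related antigen, whose overexpression in mice is known to cause lung fibrosis. It had the narrowest spread of the family. Its PBS libraries held 131, 112 and 121 CPM and its rmCIRBP libraries 229, 233 and 238 CPM. It rose by 0.98 on the log2 scale, with an SE of 0.11 and a 95% interval from 0.72 to 1.23 (edgeR adjusted p = 0.00165). rmCIRBP 2, which stood apart in other members, was in the middle of its group here.

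Maff (ENSMUSG00000042622, chromosome 15, 79346621 to 79359076, plus strand) encodes a small MAF protein, a bZIP factor with no activation domain of its own that pairs with NRF and BACH proteins. It was at 50.1, 39.0 and 28.1 CPM in PBS and at 85.3, 120 and 86.0 CPM in rmCIRBP. The groups did not overlap, and rmCIRBP 2 was the highest of all 6 libraries. Maff rose by 1.34 on the log2 scale, with an SE of 0.23 (edgeR adjusted p = 0.0107). This call ended without PBS 2 (edgeR adjusted p = 0.0555), with the log2 fold change at 1.35, while those of Fosl1 and Fosl2 held without any single library (edgeR adjusted p at most 0.0195 and 0.0139).

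**Figure D2:**
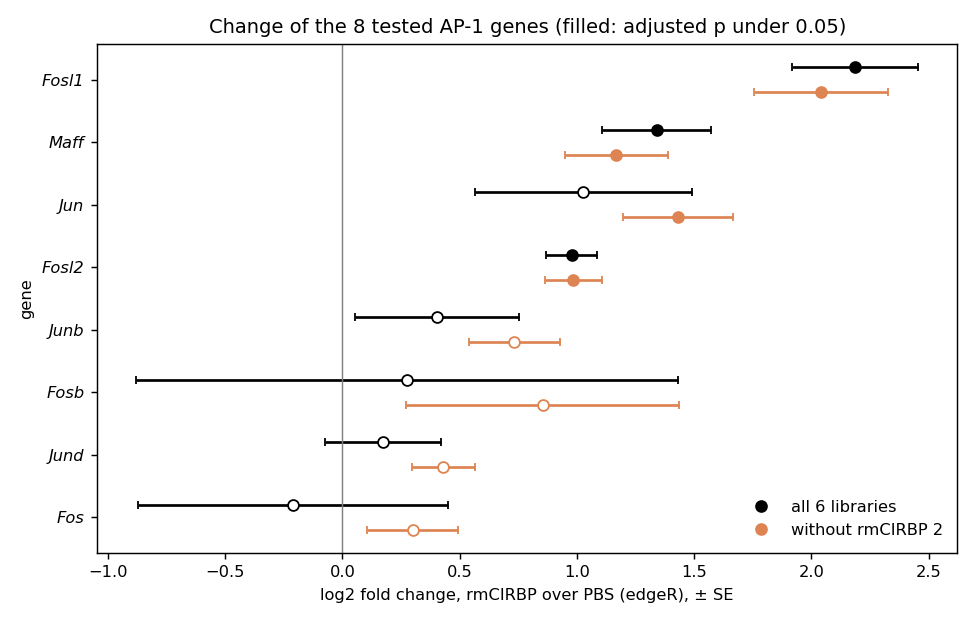
Log2 fold change of rmCIRBP over PBS with its standard error for the 8 tested members (one gene per line), from all 6 libraries in black and without rmCIRBP 2 in orange, filled where the adjusted p was under 0.05. Fosl1, Maff and Fosl2 are filled in both fits, Jun is filled only without rmCIRBP 2 (log2 fold change 1.43), and the bars of Fos and Fosb narrow in that fit.

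Fos (ENSMUSG00000021250, chromosome 12, 85473890 to 85477273, plus strand) encodes the founding FOS protein. Its PBS libraries held 364, 393 and 551 CPM and its rmCIRBP libraries 589, 56.3 and 456 CPM. rmCIRBP 1 was the highest library and rmCIRBP 2 the lowest, so that the rmCIRBP group enclosed the PBS group. The fitted log2 difference of -0.21 had an SE of 0.66 (edgeR adjusted p = 0.864) and a 95% interval from -1.74 to 1.32, and it was 0.30 (edgeR adjusted p = 0.388) without rmCIRBP 2.

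Fosb (ENSMUSG00000003545, chromosome 7, 19302696 to 19310051, minus strand) encodes FOSB, whose truncated form persists in stimulated cells. It varied most. PBS 1, 2 and 3 held 95.8, 112 and 431 CPM, and rmCIRBP 1, 2 and 3 held 474, 4.60 and 272 CPM. The highest rmCIRBP library was 103 times the lowest, and PBS 3 stood apart from the other PBS libraries as well. The log2 fold change of 0.28, with an SE of 1.16 (edgeR adjusted p = 0.898), had a 95% interval from -2.39 to 2.94, too wide to give a direction. It was 0.85 without rmCIRBP 2, 1.29 without PBS 3 and -0.56 without rmCIRBP 1.

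Jun (ENSMUSG00000052684, chromosome 4, 95049034 to 95052222, minus strand) encodes the main partner of FOS and a substrate of the JNK kinases. It was at 140, 106 and 198 CPM in PBS and at 435, 107 and 342 CPM in rmCIRBP. rmCIRBP 1 and 3 lay above all PBS libraries and rmCIRBP 2 lay between PBS 2 and PBS 1. With all libraries the log2 fold change was 1.03 with an SE of 0.46 (edgeR adjusted p = 0.187) and a 95% interval from -0.04 to 2.09. Without rmCIRBP 2 it was 1.43 with an SE of 0.24 (edgeR adjusted p = 0.00719), and 4 members were then called higher, where 6.24% of 16264 genes were. That library was singled out after its values were seen. Junos, an antisense gene sharing 689 bases with Jun, held 15.7% to 20.1% of the Jun count in each library and had a log2 fold change of 1.03 ± 0.42 (edgeR adjusted p = 0.151), and the reads of this pair cannot be told apart where they overlap.

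Junb (ENSMUSG00000052837, chromosome 8, 84976910 to 84978718, minus strand), known to restrain JUN in some settings and to drive cytokine genes in others, followed a like order. Its values were 319, 403 and 533 CPM in PBS and 689, 267 and 662 CPM in rmCIRBP. As for Jun, rmCIRBP 1 and 3 were above every PBS library, and here rmCIRBP 2 was below every one. Its log2 fold change of 0.40 had an SE of 0.35 and a 95% interval from -0.40 to 1.21 (edgeR adjusted p = 0.482), and without rmCIRBP 2 it was 0.73 ± 0.19 (edgeR adjusted p = 0.0521).

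Jund (ENSMUSG00000071076, chromosome 8, 70698949 to 70700616, plus strand) is the JUN gene expressed most steadily in resting cells. It was at 170, 181 and 217 CPM in PBS and at 264, 129 and 232 CPM in rmCIRBP. The spread was the smallest of the 5 members that followed this pattern, though rmCIRBP 2 was still the lowest library. The log2 difference was 0.17 with an SE of 0.25 and a 95% interval from -0.40 to 0.74 (edgeR adjusted p = 0.684), and 0.43 without rmCIRBP 2 (edgeR adjusted p = 0.0876). The antisense gene Gm11175 covers 919 bases of Jund and held 67.2% to 74.9% of its count in each library, and here too shared reads cannot be told apart.

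Batf (ENSMUSG00000034266, chromosome 12, 85686669 to 85709087) and Batf3 (ENSMUSG00000026630, chromosome 1, 191097847 to 191108945) encode short bZIP proteins known from lymphocytes and dendritic cells, where they pair with JUN and with IRF4 or IRF8. Neither passed the filter. Batf had 1, 0 and 0 counts in PBS and 11, 7 and 3 in rmCIRBP. The ratio of pooled counts scaled to depth was 19.5, with an exact 95% interval from 3.13 to 805 that covers counting error only. Fitted with no filter on low counts, Batf had an edgeR adjusted p of 0.0565. A count of 0 allows up to 3 counts, or 0.248 CPM in PBS 2 and 0.210 CPM in PBS 3, so Batf was at or near the limit of these libraries. Batf3 had 0, 6 and 2 counts in PBS and 1, 2 and 4 in rmCIRBP, a ratio of 0.811 (exact 95% interval 0.250 to 2.56), so no difference was detectable at this depth.

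Compared per length, as CPM per kilobase of exon, Fos and Junb led the family in PBS at 185 ± 42.7 and 182 ± 46.9 (SD, n = 3 each), followed by Jund at 113 ± 14.7, Jun at 46.4 ± 14.6, Fosb at 34.1 ± 30.3, Maff at 15.1 ± 4.24, Fosl2 at 12.5 ± 0.974 and Fosl1 at 1.58 ± 0.171. Neighbours that did not differ by more than the larger of their SDs were Fos and Junb, Jun and Fosb, Fosb and Maff, Maff and Fosl2, and Batf3 and Batf. In rmCIRBP the order was Junb at 234 ± 103, Fos at 156 ± 118, Jund at 125 ± 42.2, Jun at 92.4 ± 53.1, Fosb at 40.1 ± 37.7, Maff at 37.4 ± 7.64, Fosl2 at 24.1 ± 0.453 and Fosl1 at 7.04 ± 2.04. From Junb down to Maff no neighbours in this order differed by more than the larger SD. By these means Fosl1 and Fosl2 lay below Fos and the JUN genes in both groups, but in rmCIRBP 2 Fosl2 (24.1) was level with Fos (23.9) and not far below Jun (33.5).

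The family's summed level per kilobase was 489, 530 and 752 in PBS and 982, 331 and 838 in rmCIRBP 1, 2 and 3. Fos and Fosb together made up 34.8% to 40.3% of it in PBS, 33.2% in rmCIRBP 1, 28.3% in rmCIRBP 3 and 7.46% in rmCIRBP 2. The 3 JUN genes made up 56.3% to 59.8% in PBS and 60.5% to 68.6% in rmCIRBP. In rmCIRBP 2 Maff reached 14.0% of the pool and Fosl1 with Fosl2 9.85%, against at most 3.96% and 3.88% in any other library. These are shares of transcripts, and no protein was measured.

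**Figure D3:**
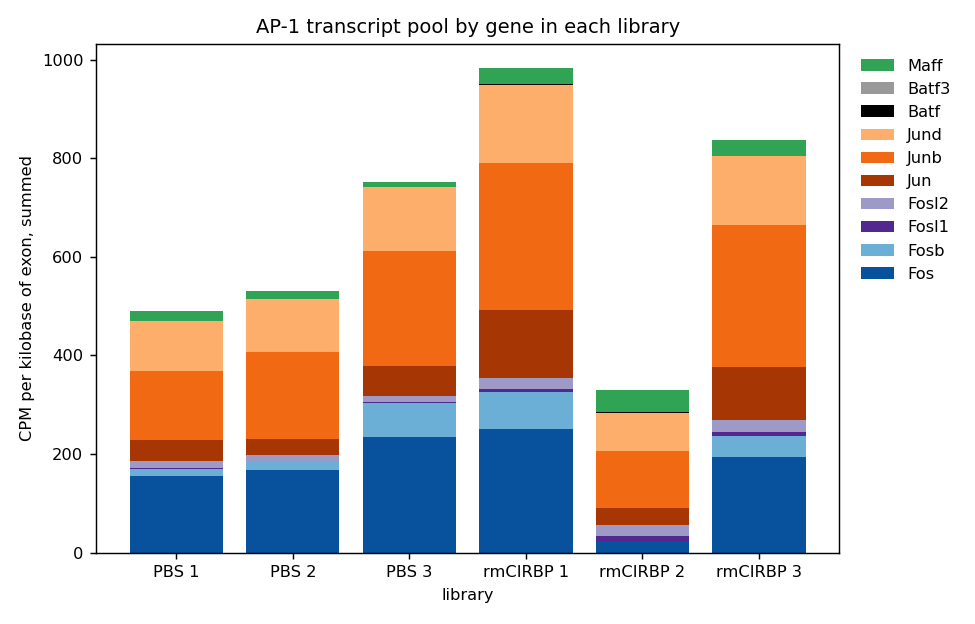
CPM per kilobase of exon summed over the 10 members (vertical axis) in each library (horizontal axis), stacked by gene, with FOS-type genes in blue and purple, JUN genes in orange and Maff in green. The bar of rmCIRBP 2 sums to 331 against 982 and 838 in the other rmCIRBP libraries, and its Fos and Fosb segments nearly vanish.

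The libraries could be put in the same order by several members. Fos and Fosb both ran, from low to high, rmCIRBP 2, PBS 1, PBS 2, rmCIRBP 3, PBS 3, rmCIRBP 1. Junb and Jund ran rmCIRBP 2, PBS 1, PBS 2, PBS 3, rmCIRBP 3, rmCIRBP 1. Jun differed from this only in that PBS 2 lay below rmCIRBP 2 and PBS 1. The order of Fos was also that of Egr1, an immediate-early zinc finger gene, at 509, 638 and 752 CPM in PBS and 761, 178 and 742 CPM in rmCIRBP. The order of Junb was that of Ier2, another immediate-early gene, at 139, 170 and 244 CPM in PBS and 296, 81.4 and 282 CPM in rmCIRBP. Egr1 and Ier2 were picked after their values were seen. How many of all genes share these orders was not counted.

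How far rmCIRBP 2 and PBS 3 departed from their groups was set against all genes with a mean of at least 1 CPM, 15034 in number, as a description. Fosb had the lowest log2 ratio of rmCIRBP 2 to the mean of rmCIRBP 1 and 3 of all of them, at -6.20, on log2(CPM + 0.5). Fos ranked 6 from the lowest at -3.20, and 0.532%, 1.60% and 4.04% of genes had a ratio at or below those of Jun (-1.86), Junb (-1.34) and Jund (-0.94). Fosl1 (0.41) and Maff (0.48) were above the middle of all genes and Fosl2 was at it, with 50.1% of genes at or below its ratio. In PBS 3 against PBS 1 and 2, Fosb had the second highest ratio of all, at 2.05, and Jun, Junb and Fos were at 0.68, 0.56 and 0.54, whereas Maff was at -0.65. A call needs a small spread within groups, so that called members could hardly have extreme ratios here.

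**Figure D4:**
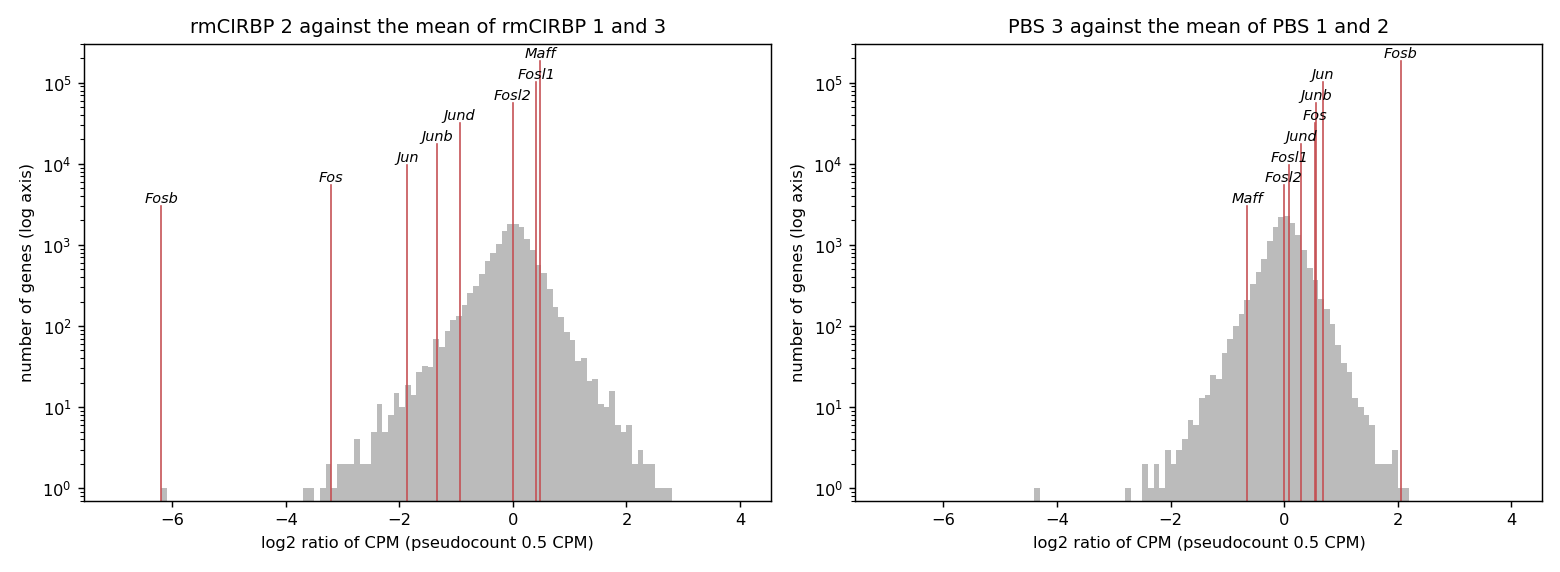
Number of genes (log axis) by log2 ratio of CPM, for rmCIRBP 2 against the mean of rmCIRBP 1 and 3 (left) and for PBS 3 against the mean of PBS 1 and 2 (right), over 15034 genes in grey, with the 8 tested members as red lines whose heights only space the names. Fosb lies at -6.20 on the left, beyond every other gene, and at 2.05 on the right.

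Other properties of these libraries are given beside the pattern, and their part in it was not tested. The 6 smooth muscle markers, led by Acta2, summed to 9792 CPM in rmCIRBP 2, to 1877 CPM at the lowest in its group and to 2537 to 5127 CPM in PBS. Myh11, the smooth muscle myosin, ranked 9 from the highest in the ratio of rmCIRBP 2 to the other rmCIRBP libraries. The 8 heat shock genes, which respond to handling, summed to 2109 to 2436 CPM in PBS and to 1605 to 2142 CPM in rmCIRBP, but most of each sum was Hspa8, a chaperone made also in unstressed cells. Single genes of the list went different ways, and those named here were picked after their values were seen. Hspa1a, a stress-inducible chaperone, was at 16.4, 17.5 and 29.7 CPM in PBS and at 32.5, 14.9 and 20.7 CPM in rmCIRBP, which is the library order of Fos and Fosb. Its reads may be split with its near-identical copy Hspa1b, at 74.7, 68.6 and 104 CPM in PBS and 108, 95.7 and 73.2 CPM in rmCIRBP. Dnajb1, a co-chaperone, was lowest in rmCIRBP 2 (61.7 CPM) and highest in PBS 3 (88.1 CPM), whereas the mitochondrial chaperone Hspd1 was highest in rmCIRBP 2 (304 CPM, against 167 to 181 CPM in its group). Mitochondrial transcripts summed to 10991 to 12535 CPM in PBS and 11399 to 13454 CPM in rmCIRBP, with rmCIRBP 2 the lowest of its group. Library totals ranged from 12105584 to 14262375 counts.

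Promoter sequence is shown for those windows of the 5 members low in rmCIRBP 2 (Fos, Fosb, Jun, Junb and Jund) and of the called members (Fosl2 and Maff) that held a motif match upstream of the start. The windows of Junb and Jund held 0 matches to the 5 motifs and are not printed. The start of the Jund window lies 1210 bases before the deposited gene start, so the sequence next to that gene start was not searched. RefSeq promoter windows on GRCm38.p6 were found for 9 of the 10 members, Fosl1 having none. The 250 bases before the annotated start are printed 5′ to 3′ on the gene's strand, with motif matches in capitals. Searches covered both strands of the 300-base windows, which run on to 50 bases after the start, for an AP-1 site (TGANTCA), a cyclic AMP response element type of site (TGACNTCA), a STAT site (TTCNNNGAA), the serum response CArG box and the NF-kB site. Of all 32851 windows, 7.81% held the first, 8.83% the second, 8.30% the third, 1.63% a CArG box and 4.51% an NF-kB site.
Fos, chr12:85473640-85473889, plus strand: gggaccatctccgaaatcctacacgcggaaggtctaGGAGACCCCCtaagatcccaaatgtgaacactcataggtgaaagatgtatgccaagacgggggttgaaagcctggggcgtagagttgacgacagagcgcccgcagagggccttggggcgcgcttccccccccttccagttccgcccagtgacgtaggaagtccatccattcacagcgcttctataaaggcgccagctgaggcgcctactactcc
Fosb, chr7:19310046-19310295, minus strand: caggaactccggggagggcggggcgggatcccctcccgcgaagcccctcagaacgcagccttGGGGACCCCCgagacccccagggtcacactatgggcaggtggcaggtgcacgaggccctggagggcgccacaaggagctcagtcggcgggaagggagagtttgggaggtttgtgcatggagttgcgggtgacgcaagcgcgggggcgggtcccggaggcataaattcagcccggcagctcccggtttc
Jun, chr4:95052223-95052472, minus strand: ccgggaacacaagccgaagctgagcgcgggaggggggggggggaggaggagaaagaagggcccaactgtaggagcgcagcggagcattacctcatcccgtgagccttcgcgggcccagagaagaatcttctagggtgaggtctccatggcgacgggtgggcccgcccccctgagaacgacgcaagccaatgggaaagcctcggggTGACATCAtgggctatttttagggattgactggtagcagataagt
Fosl2, chr5:32136222-32136471, plus strand: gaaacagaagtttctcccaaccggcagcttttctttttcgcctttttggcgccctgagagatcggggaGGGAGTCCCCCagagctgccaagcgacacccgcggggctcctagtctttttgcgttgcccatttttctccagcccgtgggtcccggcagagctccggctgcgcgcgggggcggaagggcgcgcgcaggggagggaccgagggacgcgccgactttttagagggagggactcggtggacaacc
Maff start at 79347520, chr15:79347270-79347519, plus strand: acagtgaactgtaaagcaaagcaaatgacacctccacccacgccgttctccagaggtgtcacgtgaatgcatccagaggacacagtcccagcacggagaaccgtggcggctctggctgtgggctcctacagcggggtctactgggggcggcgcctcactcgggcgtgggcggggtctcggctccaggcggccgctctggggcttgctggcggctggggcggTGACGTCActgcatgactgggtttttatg
Maff start at 79348402, chr15:79348152-79348401, plus strand: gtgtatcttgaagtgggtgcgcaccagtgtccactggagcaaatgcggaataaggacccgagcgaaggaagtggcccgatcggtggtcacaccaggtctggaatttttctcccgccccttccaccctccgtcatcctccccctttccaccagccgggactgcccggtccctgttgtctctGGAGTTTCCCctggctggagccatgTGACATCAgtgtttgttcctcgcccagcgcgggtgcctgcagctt

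Fos and Fosb each held 1 match to the NF-kB site, beginning 214 and 188 bases before the start. Fosl2 held 2 overlapping matches to it, in a window whose start lies 671 bases inside the deposited gene. Jun held 1 match to the cyclic AMP response type of site, TGACATCA, 45 bases before its start, and Jun is known as a gene that its own protein can switch on. Maff held the letters TGACGTCA 29 bases before the start at 79347520 and TGACATCA 45 bases before that at 79348402. The window at 79348402 also held an NF-kB match, and that at 79347520 a STAT match (TTCCGGGAA) beginning 28 bases after its start, outside the printed stretch. By contrast, the window at the start that the deposited table uses held no match. Neither a match to TGANTCA nor a CArG box was found in any window of a member, which says only that those letters are not in these windows. No binding was measured, and a match is not a bound site.

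Among 22 other bZIP factors that can share dimers or sites with AP-1, all tested, 3 were called higher and 2 lower. The shares over all genes tested were 6.74% higher and 4.77% lower. The median log2 fold change of these factors was 0.12, where the median of all genes tested was -0.01. Bach1, a heme-sensing repressor that pairs with small MAF proteins, rose from 56.8 ± 5.64 to 106 ± 15.0 CPM (SD, n = 3 each; edgeR adjusted p = 0.00506). Nfe2l1, another partner of small MAF proteins, rose by a log2 fold change of 0.58. Jdp2, a repressor that pairs with JUN, fell by 0.55 on the log2 scale, and Maf, a large MAF factor, fell by 0.88. Without rmCIRBP 2 the counts were 2 higher and 3 lower. In edgeR's test the call of Jdp2 ended without PBS 2 (adjusted p = 0.0509) or rmCIRBP 1 (0.0622), that of Nfe2l1 without PBS 2 (0.0805), PBS 3 (0.0651) or rmCIRBP 1 (0.0603), and that of Maf without PBS 2 (0.123), PBS 3 (0.0883) or rmCIRBP 1 (0.0910).

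Of 31 genes of the MAP kinase cascades and the SRF and ELK factors that act on AP-1 genes, 30 were tested, with a median log2 fold change of 0.08. Of these 30, 5 were called higher and 1 lower, where 6.74% and 4.77% of all genes tested were. Map3k8, the TPL2 kinase that links Toll-like receptors to ERK, rose from 9.97 ± 1.70 to 27.0 ± 10.4 CPM (SD, n = 3 each; edgeR adjusted p = 0.0203). Elk3 (log2 fold change 0.59), a partner of SRF, Mapk11 (0.84), which encodes p38 beta, and Map2k3 (0.52), a kinase of p38, rose too. Without rmCIRBP 2 the counts were 4 higher and 0 lower. In edgeR's fits PBS 2 was needed for the calls of Elk3 (adjusted p = 0.0575 without it), Map3k8 (0.0876), Mapk11 (0.0885) and Map2k3 (0.0861), and PBS 3 was as well (0.0520, 0.0728, 0.0887 and 0.114). Leaving out rmCIRBP 1 ended the calls of Map3k8 (0.0672), Mapk11 (0.0865) and Map2k3 (0.0772), rmCIRBP 3 that of Mapk11 (0.0535), and PBS 1 (0.0521) or rmCIRBP 2 (0.0505) that of Map2k3. Of 11 genes for turnover of JUN and FOS and for their co-factors, such as ubiquitin ligases and acetyltransferases, edgeR called 0, with 0 at an unadjusted p under 0.05 and 0 by DESeq2 or limma voom. As 11.5% of all genes tested were called, a count of 0 among 11 lies near that share and says little about these genes.

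Of 28 genes commonly cited as AP-1 targets, 26 were tested, 14 were called higher and 1 lower, with a median log2 fold change of 1.37. Of all genes tested, 6.74% were called higher and 4.77% lower. This list was chosen with earlier results of these data known, so its count is a description and no measure of AP-1 activity. Ccl2, a monocyte chemoattractant (7.40), Icam1, a leukocyte adhesion molecule (3.42), Cd44, the hyaluronan receptor (2.57), and Timp1, a metalloproteinase inhibitor (2.51), had the smallest p-values, with edgeR adjusted p of at most 0.000673. The gene of this list called lower was Vim, the intermediate filament vimentin (-0.88). Many of these genes are known to be driven by NF-kB as well. Without rmCIRBP 2, the library in which Fos was lowest, the counts were 14 higher and 2 lower.

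The interferon regulatory factors include the BATF partners Irf4 and Irf8. Of 9 listed, 7 were tested, 3 were called higher and edgeR called 0 lower (0 at an unadjusted p under 0.05, and 0 by DESeq2 or limma voom). Over all genes tested, 6.74% were called higher and 4.77% lower, so that 0 lower among 7 says little. Irf1, which responds to interferon and NF-kB, rose from 29.6 ± 4.69 to 106 ± 12.8 CPM (SD, n = 3 each; edgeR adjusted p = 0.000305). Without rmCIRBP 2 the counts were again 3 and 0. Irf7 (log2 fold change 1.53) and Irf2 (0.56) rose as well. Irf8 was at 1.14 and 0.988 CPM on average, and Irf4 at 0.144 and 0.0244 CPM, below the filter. In edgeR's test the call of Irf7 ended without PBS 1 (adjusted p = 0.0548), PBS 2 (0.103), PBS 3 (0.0626), rmCIRBP 1 (0.0793) or rmCIRBP 3 (0.0579), and that of Irf2 without PBS 2 (0.0795), PBS 3 (0.105), rmCIRBP 1 (0.114) or rmCIRBP 3 (0.0756).

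**Figure D5:**
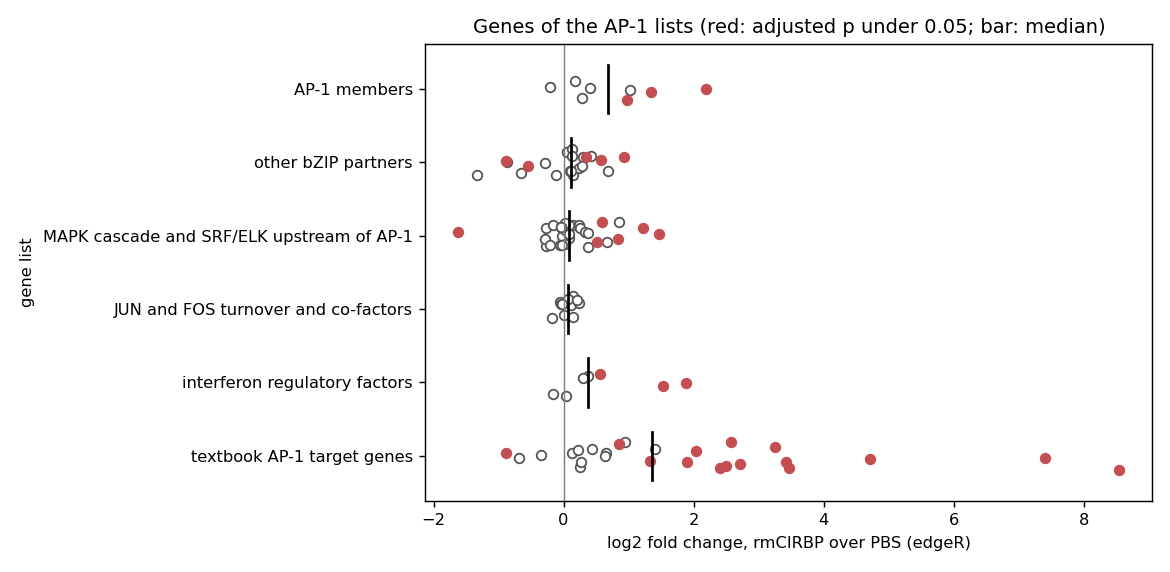
Log2 fold change of rmCIRBP over PBS (horizontal axis) for each tested gene of 6 lists (vertical axis), red where the edgeR adjusted p was under 0.05, with a bar at the median of each list. The members have a median of 0.69 and the cited AP-1 targets one of 1.37, while the other lists have medians from 0.07 to 0.37.

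The protein-coding genes whose pattern over the 6 libraries was most like that of Fosl1, the called member with the largest rise, were Kcnn3, a calcium-activated potassium channel, Cd274, the immune checkpoint ligand PD-L1, and Tfpi2, a serine protease inhibitor. Likeness was the root mean square difference of log2(CPM + 0.5), each gene taken relative to its PBS mean, and came to 0.20, 0.21 and 0.22 among 12510 candidates. Cd274 was at 3.45, 4.05 and 5.75 CPM in PBS and at 12.9, 21.4 and 22.1 CPM in rmCIRBP. It was lowest in rmCIRBP 1 among the treated libraries, as Fosl1 was, which follows from its being picked by likeness.

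The labelled cell type was checked against its markers. The 10 fibroblast markers, led by Col1a1, all passed the filter on low counts, though Lum averaged only 1.54 CPM in PBS and 1.57 CPM in rmCIRBP. The list summed to 27015 to 31582 CPM in PBS and 21102 to 27950 CPM in rmCIRBP, rmCIRBP 2 being the lowest. Of this list Dcn rose (log2 fold change 1.21) and Thy1 (-1.21) and Vim (-0.88) fell. Among lymphocyte markers, Cd3e and Cd3g had no count in any library, and the list summed to at most 1.32 CPM, beside the near absence of Batf. Dendritic cell markers summed to 5.57 to 11.3 CPM over all libraries, mostly Zbtb46, with Ccr7 at 0. Neutrophil markers summed to 0 to 0.246 CPM in PBS and 1.21 to 1.68 CPM in rmCIRBP, with S100a9, Ly6g, Cxcr2, Elane and Retnlg at 0. The 9 macrophage markers summed to 114 to 153 CPM in PBS and 73.9 to 143 CPM in rmCIRBP, led by Lyz2, which was not called (edgeR adjusted p = 0.199). Of the 8 tested, 3 were called higher and 1 lower, where 6.74% and 4.77% of all genes tested were. The called markers were named after their values were seen. Marco rose from 0.203 to 9.71 CPM, Adgre1 from 1.64 to 8.89 CPM and Siglecf from 0.134 to 1.10 CPM, and Mrc1 fell from 3.35 to 1.03 CPM. Epithelial markers summed to at most 0.790 CPM, with Krt8 at 0, and endothelial markers, led by Kdr, to 19.2 to 27.4 CPM in PBS and 5.89 to 8.19 CPM in rmCIRBP, with Cldn5 and Emcn at 0. Mesothelial markers, led by Msln, summed to 10.6 to 16.5 CPM in PBS and 3.71 to 10.1 CPM in rmCIRBP. The part of such cells in the members' values was not tested.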

How the data were processed

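The submitters' processing notes name featureCounts, DESeq2, R 4.1.2 and the mouse build GRCm38 (mm10). The authors deposited raw counts per gene, 1 column per library. For aligner, annotation release and strand setting the entry is: not given in the sources used here. Column names carry group and replicate number, as the sample titles do, and 0 columns were left unmapped. Depth was 12105584 to 14262375 counts per library.

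Counts of all 55487 genes were filtered with filterByExpr by group (15801 left), scaled by trimmed mean of M values and tested with edgeR 4.0.16 in R 4.3.3 (quasi-likelihood F test, two-sided, treatment only, Benjamini-Hochberg at 0.05). Standard errors are the absolute log2 fold change over the root of F, and 95% intervals use the t distribution with the fit's degrees of freedom. CPM is the count scaled to the library total. Exon lengths are unions of GENCODE M21 exons, found for 55227 identifiers. The fit was tested on simulated data.

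Members and lists were chosen with earlier results of these data known. Named besides the members are per pathway list up to 4 called genes by smallest p, per cell type list its most abundant marker, and 3 genes most like the called member with the largest rise. Egr1 and Ier2 were added after their values were seen. So were Dcn, Thy1, Vim, Myh11, the single heat shock genes and the macrophage markers named beside Lyz2. Alternatives were other scalings and filters, DESeq2 1.42.0, limma voom 3.58.1, a robust fit, a replicate block, single libraries removed, thresholds of 0.01 and 0.10, and protein-coding genes alone.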

Additional observations from a re-analysis of the deposited data

How the results depend on the processing

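Members called higher numbered 3 under each other scaling, DESeq2, limma voom, the robust fit, the stricter filter and protein-coding genes alone, 4 with no filter (Jun added, edgeR adjusted p = 0.0382), 2 at a threshold of 0.01 and 2 to 4 when single libraries were left out. Members called lower numbered 0 throughout. The log2 fold change of Fosb turned to -0.94 with limma voom and to -0.72 with the replicate block, and it ranged from -0.56 to 1.29 without single libraries, below 0 without PBS 1 (-0.06), PBS 2 (-0.02) or rmCIRBP 1 (-0.56). That of Fos ranged from -0.71 to 0.30, above 0 without rmCIRBP 2, that of Jund from -0.020 (without rmCIRBP 1) to 0.43, and that of Zbtb46, a dendritic cell marker, from -0.28 to 0.068 (above 0 without rmCIRBP 3). The cause was not tested. Of 128 values of members under alternatives, 118 kept direction and side of the threshold.

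Genes called numbered 1818 (1065 higher, 753 lower). They were 608 (456 and 152) at 0.01, 3066 (1653 and 1413) at 0.10 and 723 to 2144 (513 to 1299 higher, 203 to 845 lower) without single libraries, where fewer samples are tested. DESeq2 called 1172 lower. Upper quartile scaling gave 925 higher and 1022 lower. The labels do not say that replicate numbers pair libraries, so the number was not taken as a pairing. Deviations from the group mean had correlations of -0.13, -0.19 and 0.27 between same-numbered libraries and of -0.36 to 0.39 between differently numbered ones. Deviations from a mean of 3 are tied to each other, so these values cannot tell whether libraries were paired. With the replicate block 1258 genes (792 higher, 466 lower) and 3 members were called. In that fit the calls of Nfe2l1 (edgeR adjusted p = 0.0562), Maf (0.0716), Map2k3 (0.0514) and Irf2 (0.0713) ended.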
